A study of Mus musculus with 6 samples.

Results

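Imprinted genes were followed across mesoderm cells in which the transcription factor Etv2 was switched on. The group comprised 34 named genes from imprinted regions of the mouse genome, and each was matched to the array by an annotation symbol identical to its name. Of the 34 genes, 33 had a probe set that carried their symbol alone, out of 18193 genes tested on the array, and the probe set brightest on average stood for its gene. H19 had no probe set with its symbol alone and was not analysed here. Snrpn was read from 1 probe set, and other probe sets that carry its symbol together with a neighbour's were left out.

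All samples came from 1 mouse embryonic stem (ES) cell line, ER71 A17C, of the 129P2/Ola background, which carries an Etv2 cassette (ER71 A2Lox.cre) under doxycycline control. The cells were differentiated as hanging-drop embryoid bodies, clusters in which ES cells leave pluripotency, and cells carrying the receptor Flk1, the product of Kdr, were sorted at day 3.5. In the 3 induced samples doxycycline at 0.5 microg/ml was present for 12 hours from day 3, and the 3 controls are described as untreated, although the treatment field carries the doxycycline text for all 6. No doxycycline-treated line without the cassette was analysed here, so effects of the drug and of Etv2 cannot be told apart, and no label says whether replicates were separate cultures, so p-values measure only the spread between these samples.

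Imprinted genes are transcribed mainly from the copy inherited from 1 parent. For most of them the choice is set by DNA methylation laid down in the germ line at control regions. Imprinted genes that share a control region lie in clusters. Many act on growth of the embryo and placenta, and Mest takes its name from the embryonic mesoderm. The arrays read the sum of both copies, so parental origin is stated here as background and was not measured.

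Values are log2 levels on the RMA scale, on which a difference of 1 is a doubling, and every difference is induced minus control. Levels of different genes come from different probes and are not set against each other. As a check of the labels, Etv2 stood at 9.92, 8.59 and 10.71 on control arrays 1, 2 and 3, against 13.27, 13.28 and 13.36 on induced arrays 1, 2 and 3. The groups did not overlap, yet this difference of 3.56 ± 0.44 (SE) had an adjusted p of 0.388 in limma over all genes. The array medians lay between 7.34 and 7.40, and the number of arrays limits the precision. Kdr, the gene of the sorted protein, varied between arrays of a group, at 10.02, 8.40 and 10.97 on control arrays, against 9.56, 9.36 and 10.52 on induced arrays. Control 2 had the lowest Kdr level and control 3 the highest. These are bulk samples, so fewer cells of a type and less RNA per cell cannot be told apart.

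No imprinted gene differed between induced and control samples beyond the threshold of the test. That threshold was also missed by Etv2 itself, so a count of 0 says little about how far these genes moved, and the intervals of the differences give the sizes these arrays allow. In limma, with Benjamini-Hochberg adjustment over all genes and a threshold of 0.05, 0 of the 33 genes passed, against 1 of all genes tested, or 0.0055%. At an unadjusted p under 0.05 there was 1 of 33, Dlk1, which lay lower, against 1.71% of all genes. With the replicate number as a block, 0 of the 33 passed the adjusted threshold and 2 of all genes did, and Dlk1 and Slc38a4 had an unadjusted p under 0.05. The median difference over the 33 genes was -0.0059, against 0.0026 over all genes, with 16 positive and 17 negative. In 27 of the 33 the difference was smaller than the SD between arrays of a group, and the same held for 77.2% of all genes. The exceptions were Usp29, Sgce, Magel2, Dlk1, Kcnq1ot1 and Airn. The differences ran from -0.48 for Phlda2 to 0.22 for Mirg, and the adjusted p was 0.9995 throughout.

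**Figure D1:**
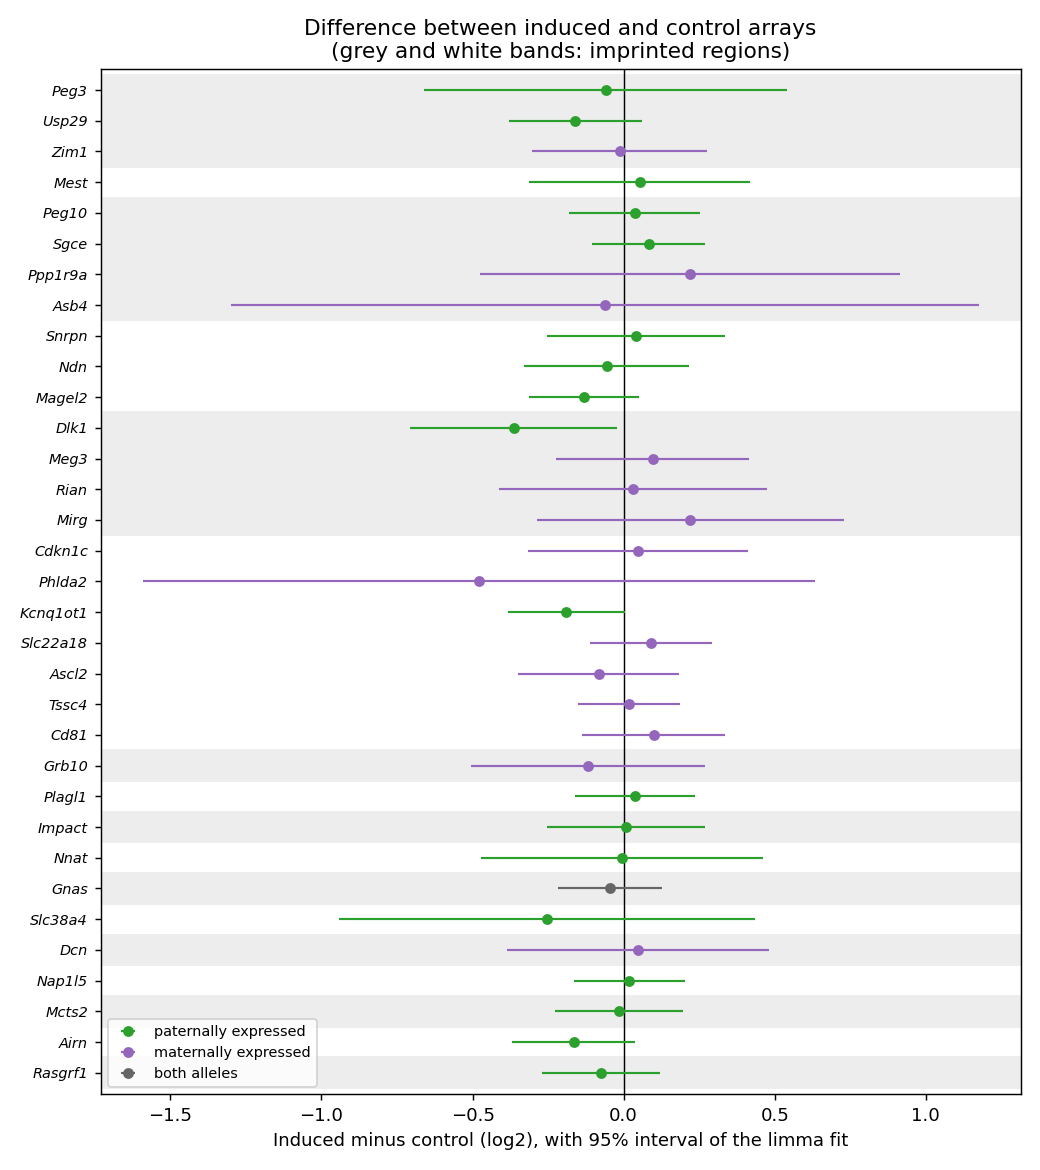
Induced minus control difference in log2 units (x axis) for each of 33 imprinted genes (y axis), with the 95% interval of the limma fit as a bar and the expressed parental copy as colour; grey and white bands mark imprinted regions. The points lie between -0.48 and 0.22, and the intervals of all genes but Dlk1 cross 0.

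Groups that did not overlap were seen for 1 imprinted gene, Kcnq1ot1, whose 3 induced values lay below the 3 controls. Over all genes 6.79% did not overlap, and 3.91% lay wholly lower in the induced samples. The count for imprinted genes was 2 without control 1, control 3 or induced 1, 3 without induced 3, 4 without induced 2 and 7 without control 2. Over all genes the share then rose too, to between 12.3% and 20.0%. The genes set apart without control 2 were Airn, Dlk1, Gnas, Kcnq1ot1 and Usp29, lower in the induced samples, and Mirg and Sgce, higher.

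The spread between arrays of a group was the larger feature of these genes. The median SD within groups was 0.168 over the 33 genes, against 0.121 over all genes, and 20 of the 33 exceeded the all-gene median. With the replicate number as a block the medians were 0.105 and 0.102. Asb4, Phlda2, Ppp1r9a, Slc38a4, Peg3 and Mirg had the largest SD of the 33, from 0.92 for Asb4 to 0.36 for Mirg. Of all genes tested, 99.9% had a smaller SD than Asb4 and 97.2% a smaller one than Mirg. Genes classed as maternally expressed had a median SD of 0.256, with 12 of 14 above the all-gene median. Those classed as paternally expressed had a median of 0.114, with 8 of 18 above it, and this contrast was not tested. The classes are background knowledge, and some of the genes are known as maternally expressed only in placenta or in some tissues.

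**Figure D2:**
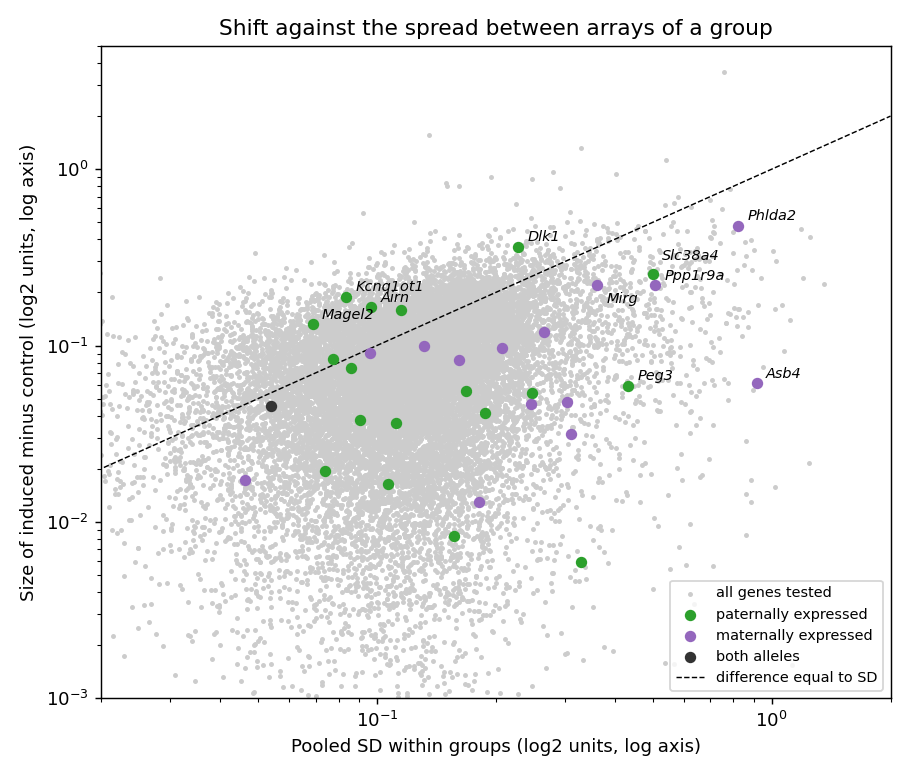
Size of the induced minus control difference (y axis, log2 units on a log axis) against the pooled SD within groups (x axis, log2 units on a log axis) for all genes tested (grey) and the 33 imprinted genes (coloured by expressed copy); all-gene points below 0.001 or outside the SD range shown are not drawn. The dashed line marks a difference equal to the SD, and 27 of the 33 imprinted genes lie below it, with Asb4 and Phlda2 far to the right.

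The Peg3 region lies on proximal chromosome 7. Peg3, a paternally expressed zinc finger protein, and Usp29, a paternally expressed gene of the ubiquitin-specific protease family, start on opposite strands from a shared promoter. The 163 bases between their RefSeq start sites are shown because a common promoter is followed by unlike spreads. They lie at chr7:6730420-6730582 of GRCm38.p6 and are written on the plus strand, on which Usp29 runs, with the 5 CpG dinucleotides in capitals, CpG being the site of mammalian DNA methylation.
Peg3-Usp29: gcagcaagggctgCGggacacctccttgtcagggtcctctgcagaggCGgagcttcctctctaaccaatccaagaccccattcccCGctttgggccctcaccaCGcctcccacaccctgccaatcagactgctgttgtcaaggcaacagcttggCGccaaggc

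Peg3 stood at 13.33, 12.51 and 13.53 on control arrays 1, 2 and 3, against 13.08, 12.76 and 13.35 on induced arrays 1, 2 and 3. Control 2 was the lowest array and the groups overlapped. The difference was -0.059 ± 0.26 (SE), and its sign turned without control 1, control 3 or induced 2. Usp29 was at 7.55, 7.45 and 7.73 on control arrays, against 7.34, 7.42 and 7.50 on induced arrays, a difference of -0.16 ± 0.095 with an SD within groups of 0.115, against 0.434 for Peg3. The second Usp29 probe set, with a mean of 5.50, had a difference of 0.022. Zim1, the maternally expressed zinc finger gene of the region, was at a mean of 5.93 in the control group, against 5.92 in the induced group. Both means lay just below the lower quartile of the arrays, which ran from 5.96 to 6.06. The 3 genes had a median difference of -0.059, and none of them separated the groups.

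The Peg10 region on proximal chromosome 6 held the widest spread and a pair of genes that varied in opposite directions. Asb4, a maternally expressed gene for an ankyrin repeat and SOCS box protein, stood at 8.87, 7.05 and 9.24 on control arrays 1, 2 and 3, against 8.17, 7.87 and 8.94 on induced arrays 1, 2 and 3. Control 2 lay 2.01 below the mean of the other controls, and the groups overlapped. Ppp1r9a, which encodes the actin-binding protein neurabin and is also maternally expressed in some tissues, was at 9.12, 9.92 and 8.64 on control arrays, against 9.63, 9.63 and 9.08 on induced arrays. Here control 2 was the highest array and control 3 the lowest, the reverse of Asb4.

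The difference was -0.061 ± 0.54 (SE) for Asb4 and 0.22 ± 0.30 for Ppp1r9a. Without control 2 these became -0.73 and 0.57, with limma's adjusted p at 0.967 for both. Without control 3 they turned to 0.37 and -0.071. The other probe sets of both genes put control 2 on the same side of the other controls, at -1.85 from their mean for Asb4 and at 0.21 to 1.04 from it for the 4 of Ppp1r9a. Sgce, the paternally expressed epsilon-sarcoglycan gene, stood close together, at 8.31, 8.44 and 8.23 on control arrays, against 8.43, 8.37 and 8.42 on induced arrays, a difference of 0.083 ± 0.081. Peg10, a paternally expressed gene derived from a retrotransposon, had its 1 probe set at a mean of 4.94 in the control group, against 4.98 in the induced group, below the lower quartile of each array, which lay between 5.96 and 6.06.

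The 250 bases before a RefSeq start site of Asb4 and of Ppp1r9a are shown because these neighbours ran against each other. CpG dinucleotides are in capitals, and both are on the plus strand of GRCm38.p6. Asb4, at chr6:5383136-5383385, is the first of 2 windows for the gene and holds 4 CpG. Ppp1r9a, at chr6:4903061-4903310, is also the first of 2 and holds 35. The second windows, not shown, hold 8 CpG for Asb4 and 8 for Ppp1r9a, so the CpG counts depend on the window.
Asb4: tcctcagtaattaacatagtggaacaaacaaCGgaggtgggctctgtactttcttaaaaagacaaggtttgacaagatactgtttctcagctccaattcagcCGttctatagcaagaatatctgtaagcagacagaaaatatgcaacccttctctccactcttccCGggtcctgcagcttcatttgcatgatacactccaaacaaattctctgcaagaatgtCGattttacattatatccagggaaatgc
Ppp1r9a: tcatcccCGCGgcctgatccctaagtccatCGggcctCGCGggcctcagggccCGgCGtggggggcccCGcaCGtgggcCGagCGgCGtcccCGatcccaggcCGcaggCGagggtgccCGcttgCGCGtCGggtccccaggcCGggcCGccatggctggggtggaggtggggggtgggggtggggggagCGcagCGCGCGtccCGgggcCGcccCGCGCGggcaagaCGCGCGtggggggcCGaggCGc

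Mest and Nap1l5 are paternally expressed genes elsewhere on chromosome 6. Mest, an embryonic mesoderm gene of the hydrolase fold family, stood at 10.66, 10.73 and 11.12 on control arrays, against 10.81, 10.70 and 11.17 on induced arrays, with replicate 3 the highest array in both groups and a difference of 0.054 ± 0.16 (SE). Its intron carries the hairpin of miR-335, whose mature strands the arrays did not read. The seed, bases 2 to 8, is in capitals, and the sequence lies on the plus strand at chr6:30741314-30741336 of GRCm38.p6.
mmu-miR-335-5p: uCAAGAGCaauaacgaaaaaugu
Nap1l5, a nucleosome assembly protein gene that is itself a retrocopy, was at 6.30 in the control group, against 6.32 in the induced group.

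In the Snrpn region of central chromosome 7, known in humans for Prader-Willi syndrome, all 3 genes measured are paternally expressed. Ndn, which encodes the growth suppressor necdin, stood at 10.92, 10.72 and 10.86 on control arrays, against 10.83, 10.54 and 10.95 on induced arrays, with number 2 the lowest in each group. Its difference was -0.055 ± 0.12 (SE), and its sign turned after quantile normalization (0.0016). Magel2, a MAGE-family gene that acts in protein sorting, was at 9.23, 9.20 and 9.09 on control arrays, against 9.02, 9.12 and 8.99 on induced arrays. The lowest control lay below the highest induced sample, so the groups overlapped, and the difference was -0.13 ± 0.079. Snrpn, which encodes a splicing protein, was at 8.15 in the control group, against 8.19 in the induced group.

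The Dlk1-Meg3 region on distal chromosome 12 held the 1 gene with an unadjusted p under 0.05. Dlk1, a paternally expressed Notch-related growth factor gene, stood at 7.33, 6.94 and 7.56 on control arrays 1, 2 and 3, against 6.84, 6.92 and 6.98 on induced arrays 1, 2 and 3. Controls 1 and 3 lay above all induced samples, and control 2 lay among them. The difference was -0.36 ± 0.15 (SE), or 1.29-fold lower, with limma's p at 0.040 and its adjusted p at 0.9995. Without control 2 it was -0.53, at an adjusted p of 0.530. The second Dlk1 probe set, with a mean of 5.82, had a difference of -0.0090. The low-Kdr array control 2 was also the control with the lowest Dlk1, and the part of the Kdr level in the Dlk1 difference was not tested.

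Meg3, Rian and Mirg are maternally expressed non-coding RNAs of the same region, transcribed in 1 direction, and host small RNAs. Meg3 was at 12.74, 12.93 and 12.53 on control arrays, against 12.88, 13.01 and 12.59 on induced arrays, with replicate 2 the highest and replicate 3 the lowest in both groups and a difference of 0.096 ± 0.14 (SE). Its other probe sets had differences from -0.048 to 0.48, the last on a probe set with control 2 at 11.23 and control 3 at 9.56. Mirg was at 10.31, 10.75 and 9.74 on control arrays, against 10.54, 10.53 and 10.39 on induced arrays. Its spread came from the controls, whose SD was 0.50 against 0.081 in induced samples, and its difference was 0.22 ± 0.22. Without control 2 it was 0.46, at an adjusted p of 0.967, and without control 3 it was -0.043. Rian was at 9.13, 8.88 and 8.76 on control arrays, against 8.88, 8.60 and 9.38 on induced arrays. On this probe set control 3 was the lowest control, as for Meg3 and Mirg, but induced 3 was the highest array.

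The span of Mirg holds 10 annotated microRNA hairpins in RefSeq (GRCm38.p6). The mature microRNAs were not measured, and a host RNA need not track them. A pair from Mirg that share a seed are shown with it in capitals, as the only shared seed among the microRNAs found within these genes. They lie on the plus strand at chr12:109735669-109735692 and chr12:109739132-109739152.
mmu-miR-453: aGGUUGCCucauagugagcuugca
mmu-miR-496a-5p: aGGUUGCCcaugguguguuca

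The Kcnq1 region on distal chromosome 7 is controlled by a paternally expressed antisense RNA, Kcnq1ot1, which is known to silence the neighbouring genes in cis on the paternal copy. Kcnq1ot1 stood at 9.42, 9.35 and 9.52 on control arrays, against 9.32, 9.16 and 9.22 on induced arrays, so that every induced array lay below every control by a small margin. The difference was -0.19 ± 0.083 (SE), or 1.14-fold lower, with an adjusted p of 0.9995 in limma. The 5 other probe sets of the gene had differences from -0.11 to -0.011, and with the most variable probe set or the mean of all 6 the groups overlapped.

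Phlda2, a maternally expressed gene that limits placental growth, had the largest difference and a spread that exceeded it. It stood at 12.26, 10.99 and 12.81 on control arrays 1, 2 and 3, against 11.15, 11.13 and 12.35 on induced arrays 1, 2 and 3. Control 2 and induced samples 1 and 2 formed the low end, so low arrays occurred in both groups. The difference was -0.48 ± 0.48 (SE), with a 95% interval of -1.59 to 0.63, and between -0.99 and -0.083 when single samples were left out, the first without control 2. Cdkn1c, which encodes the cell cycle inhibitor p57 and is maternally expressed, was at 10.25, 9.81 and 10.40 on control arrays, against 10.15, 10.06 and 10.39 on induced arrays. It too was lowest in control 2, with a difference of 0.047 ± 0.16.

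The 250 bases before the start sites of Kcnq1ot1, the 1 gene whose groups did not overlap, and of Phlda2, the gene with the largest difference, are shown with CpG in capitals. Both run on the minus strand of GRCm38.p6, at chr7:143296548-143296797 with 5 CpG and at chr7:143502525-143502774 with 21.
Kcnq1ot1: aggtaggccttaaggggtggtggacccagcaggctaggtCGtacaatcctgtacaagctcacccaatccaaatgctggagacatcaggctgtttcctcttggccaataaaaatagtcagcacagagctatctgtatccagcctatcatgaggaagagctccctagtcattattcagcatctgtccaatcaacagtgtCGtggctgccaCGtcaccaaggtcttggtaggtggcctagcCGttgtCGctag
Phlda2: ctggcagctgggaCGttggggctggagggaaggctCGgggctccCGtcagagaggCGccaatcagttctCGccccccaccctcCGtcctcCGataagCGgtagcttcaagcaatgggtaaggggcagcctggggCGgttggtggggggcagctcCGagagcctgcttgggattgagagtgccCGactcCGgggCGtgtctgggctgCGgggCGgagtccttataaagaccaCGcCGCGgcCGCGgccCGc

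The remaining genes of the Kcnq1 region are maternally expressed, some in placenta only, and each had an SD within groups below that of Phlda2. Cd81, a tetraspanin gene, was at 12.28, 12.37 and 12.04 on control arrays, against 12.40, 12.34 and 12.25 on induced arrays, a difference of 0.099 ± 0.10 (SE). Slc22a18, a transporter gene, was at 8.07, 8.15 and 8.22 on control arrays, against 8.21, 8.36 and 8.14 on induced arrays, a difference of 0.090 ± 0.088. Ascl2, a trophoblast transcription factor gene, was at 7.17 ± 0.14 (SD, n = 3) in the control group, against 7.09 ± 0.18 in the induced group. Tssc4 had the smallest SD of the 33 genes, 0.046, and was at 9.07 in the control group, against 9.09 in the induced group. Over the region's 7 genes the median difference was 0.017, with 4 positive.

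Among genes measured alone in their region, differences ran from -0.25 for Slc38a4 to 0.054 for Mest. Slc38a4, a paternally expressed amino acid transporter gene on chromosome 15, stood at 11.02, 10.45 and 11.41 on control arrays, against 10.63, 10.23 and 11.26 on induced arrays, with number 2 the lowest and number 3 the highest in both groups. Its difference was -0.25 ± 0.30 (SE), and its second probe set had -0.23. Airn, the paternally expressed antisense RNA that silences Igf2r on chromosome 17, was at 6.18, 6.0 and 6.18 on control arrays, against 5.87, 6.05 and 5.94 on induced arrays, a difference of -0.16 ± 0.088, and it lay near the lower quartile of the arrays. Rasgrf1, a paternally expressed exchange factor gene on chromosome 9, was at 7.0, 7.01 and 7.10 on control arrays, against 7.06, 6.84 and 6.98 on induced arrays, a difference of -0.074 ± 0.084. Grb10, a growth-inhibiting adaptor gene on chromosome 11 that is maternally expressed outside neurons, was at 12.45 ± 0.33 (SD, n = 3) and 12.33 ± 0.18.

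The other single genes had differences smaller than their SD within groups. Gnas, whose locus makes maternal, paternal and biallelic transcripts for the stimulatory G protein and its relatives, was at 13.61 ± 0.073 (SD, n = 3) in the control group, against 13.56 ± 0.020 in the induced group. Impact, a paternally expressed regulator of translation, was at 11.64 and 11.65. Mcts2, a paternally expressed retrocopy, was at 10.36 and 10.34. Plagl1, a paternally expressed zinc finger factor that regulates other imprinted genes, was at 6.64 and 6.68. Nnat, the paternally expressed neuronatin gene, was at 4.97 and 4.96, below the lower quartile of the arrays, with induced samples spread from 4.58 to 5.43. Dcn, the matrix proteoglycan decorin that is maternally expressed in placenta, was at 7.53 ± 0.41 in the control group, against 7.57 ± 0.13 in the induced group, with control 2 the highest array at 7.95.

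**Figure D3:**
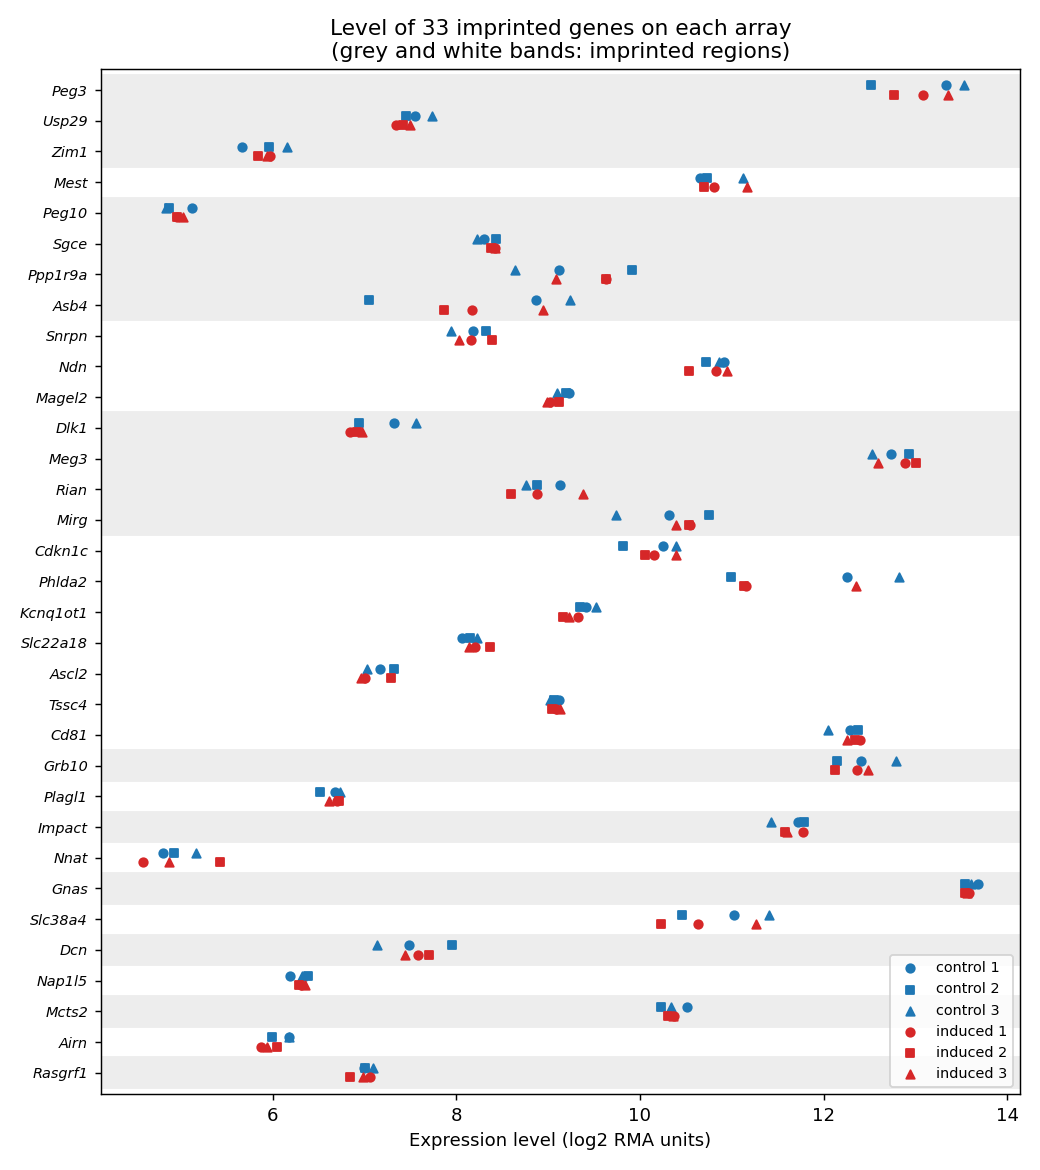
Level in log2 RMA units (x axis) of 33 imprinted genes (y axis) on each of 6 arrays, controls in blue above and induced samples in red below, with the replicate number as the marker shape; grey and white bands mark imprinted regions. Blue and red points overlap for every gene but Kcnq1ot1, and the widest spreads are Asb4, from 7.05 to 9.24, and Phlda2, from 10.99 to 12.81.

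By the parental copy a gene is known for, the 14 genes classed as maternally expressed had a median difference of 0.039, with 9 positive. The 18 classed as paternally expressed had a median of -0.036, with 7 positive. The medians over all genes and over the 33 were 0.0026 and -0.0059. The difference between the classes was not tested. In both classes 0 genes passed the adjusted threshold in limma, with 0 and 1 at an unadjusted p under 0.05. The sign of the maternal median turned when control 3 (-0.0066) or induced 3 (-0.012) was left out.

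Control 2 was low in Kdr and was the control farthest from its group mean for 13 imprinted genes, control 3 for 12 and control 1 for 8. Among induced samples, induced 1 was farthest for 4, induced 2 for 13 and induced 3 for 16. The same counts were not made over all genes. Over all genes the mean size of the deviation was 0.077, 0.104 and 0.108 on controls 1, 2 and 3. On induced arrays 1, 2 and 3 it was 0.080, 0.120 and 0.087. For the imprinted genes it was 0.101, 0.248 and 0.231 on controls, against 0.078, 0.153 and 0.164 on induced arrays. Each gene's level was set against that of Kdr over the 6 arrays, a relation chosen after the values were seen. An unadjusted exact permutation p under 0.05 was found for 12 of 33 imprinted genes, 6 with a positive and 6 with a negative relation, against 11.9% of all genes. Adjusted over all genes, 0 of 33 passed, as did 0.0% of all genes, since 6 arrays allow no two-sided p below 0.0028 and 280 genes shared that value. The smallest adjusted p was 0.180, so the relations are given as descriptions of these arrays. In both groups Kdr was lowest on replicate 2 and highest on replicate 3, so its level and the replicate number cannot be told apart. The test shuffles all 6 arrays without regard to replicate number. Leaving out controls 2 and 3 keeps the same order of replicate numbers.

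Asb4, Phlda2, Peg3 and Cdkn1c kept the same order over the 6 arrays as Kdr, with Spearman's rho at 1.0 and Pearson's r at 0.979, 0.916, 0.964 and 0.983 (exact permutation p = 0.0028 for r and rho, adjusted 0.180). Without controls 2 and 3, the arrays farthest from the median of Kdr, r was 0.938, 0.927, 0.888 and 0.993. Grb10 had r = 0.904 (exact permutation p = 0.0056, adjusted 0.183) and rho = 0.943 (p = 0.017, adjusted 0.269), with r = 0.860 without those arrays. Slc38a4 had r = 0.875 (exact permutation p = 0.022, adjusted 0.288) and rho = 0.943 (p = 0.017, adjusted 0.269), with r = 0.965 without them. Per log2 unit of Kdr, the fitted slope was 0.88 for Asb4, 0.79 for Phlda2, 0.41 for Peg3 and 0.24 for Cdkn1c.

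Dcn and Ppp1r9a were lowest where Kdr was highest. Dcn had r = -0.979 and rho = -1.0 (exact permutation p = 0.0028 for both, adjusted 0.180), and Ppp1r9a had r = -0.961 (exact permutation p = 0.0056, adjusted 0.183) and rho = -0.943 (p = 0.017, adjusted 0.269). Without controls 2 and 3, r was -0.946 and -0.922. Meg3 had r = -0.884 and Mirg -0.872 (exact permutation p = 0.019 and 0.011, adjusted 0.273 and 0.221), with rho at -0.943 and -0.886 (p = 0.017 and 0.033, adjusted 0.269 and 0.338) and r at -0.989 and -0.736 without those arrays. Snrpn and Cd81 had r = -0.874 and -0.819 (exact permutation p = 0.028 and 0.019, adjusted 0.315 and 0.273), with rho at -0.886 and -0.829 (p = 0.033 and 0.058, adjusted 0.338 and 0.416) and r at -0.863 and -0.860 without them. By class, 9 of 14 genes classed as maternally expressed and 3 of 18 classed as paternally expressed were among the 12. These were 64.3% and 16.7%, against 11.9% of all genes. The contrast between the classes was not tested, and the copy expressed in these cells was not measured.

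**Figure D4:**
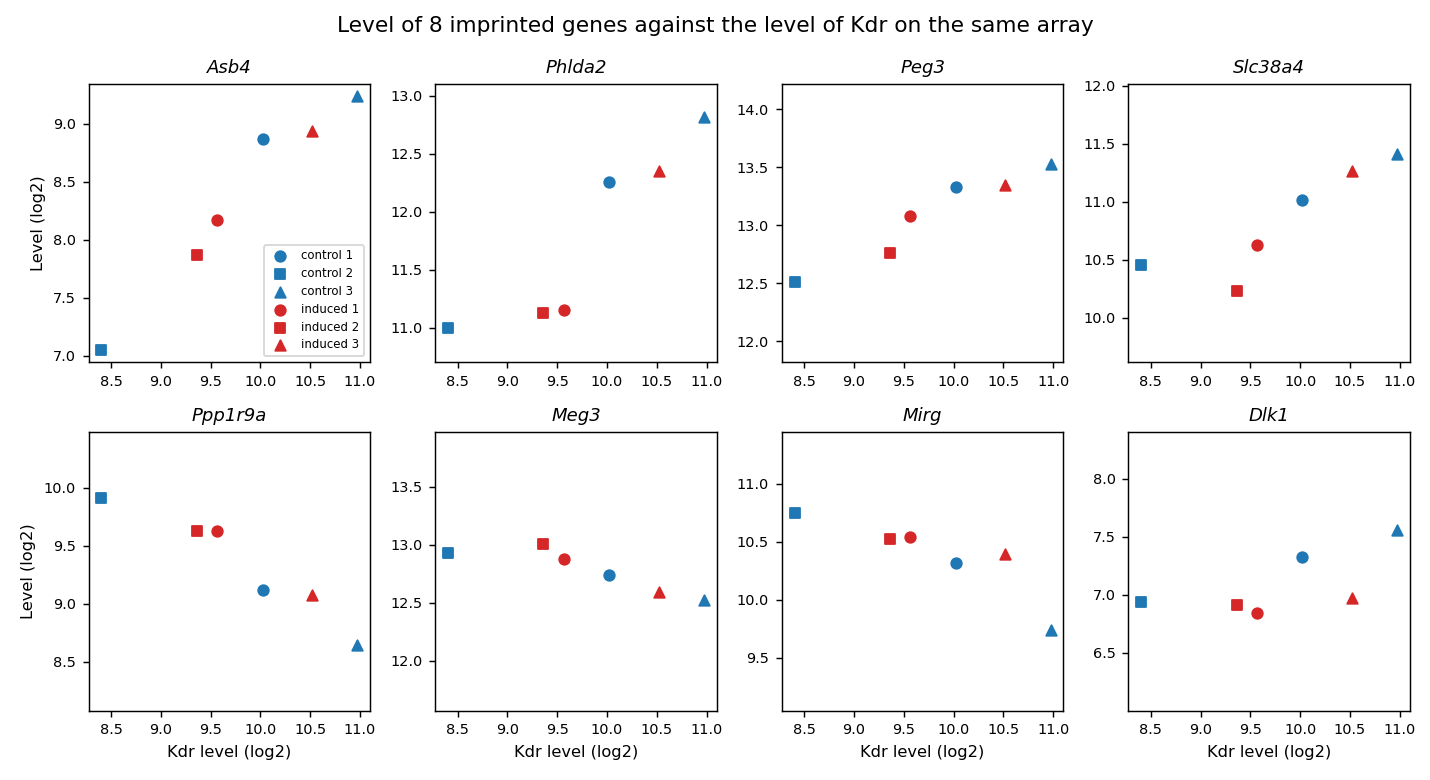
Level of 8 imprinted genes (y axes, log2 units, each spanning the same range) against the level of Kdr on the same array (x axes, log2 units), controls in blue and induced samples in red with the replicate number as marker shape. Asb4, Phlda2, Peg3 and Slc38a4 rise to the right, Ppp1r9a, Meg3 and Mirg fall, and for Dlk1 controls 1 and 3 lie above the induced samples.

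Lists of marker genes moved over the arrays as well, and their part in the imprinted genes' spread was not tested. The mean level of 11 mesoderm genes was 10.74, 9.79 and 11.04 on control arrays 1, 2 and 3, against 10.32, 10.22 and 10.74 on induced arrays 1, 2 and 3. Of the 10 besides Kdr, 8 were positively related to it at an unadjusted exact permutation p under 0.05, against 11.9% of all genes related in either direction. The mean of 12 pluripotency and epiblast genes was 10.70, 11.13 and 10.46 on control arrays, against 10.91, 10.86 and 10.69 on induced arrays, so that control 2 was the highest where mesoderm genes were the lowest. Of these 12, 9 had an unadjusted exact permutation p under 0.05 with Kdr, 1 with a positive and 8 with a negative relation.

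Lists for other cell types, some of which express these imprinted genes, had means with narrower ranges than that of the mesoderm list, while single genes in them moved as far as Kdr. For trophoblast, which expresses Ascl2 and Phlda2, the mean of 9 genes lay between 7.77 and 8.17 in controls and between 7.92 and 8.08 in induced samples, with Tpbpa at 4.77, 4.82 and 4.76 in the controls. Gata3 of that list, also known from other lineages, stood at 7.82, 6.15 and 8.58 on control arrays, against 7.41, 7.02 and 8.64 on induced arrays. In all, 3 of the 9 genes had an unadjusted exact permutation p under 0.05 with Kdr, against 11.9% of all genes. For fibroblasts and feeder cells, which express Dcn, the mean of 10 genes lay between 6.92 and 7.10 in controls and 7.02 and 7.07 in induced samples, with Col3a1 at 4.71, 4.71 and 4.69 in the controls. In that list 4 of 10 genes had such a p with Kdr, against 11.9% of all genes. Among them were Col1a2, at 8.67, 8.10 and 8.75 in the controls, and Thy1, at 7.24, 7.76 and 7.16. For 10 extraembryonic endoderm genes the mean lay between 7.25 and 7.58 in controls and 7.47 and 7.56 in induced samples, and 1 of the 10, Sox17, had such a p with Kdr, at 10.02, 8.29 and 10.81 in the controls. For 9 neuroectoderm genes it lay between 7.74 and 7.93 and between 7.76 and 7.88, and for 10 endothelial and blood genes between 6.77 and 6.95 and between 6.90 and 7.12. Such a p with Kdr was found for 1 of 9 neuroectoderm and 3 of 10 endothelial and blood genes. The all-gene share of 11.9% stands beside each list's count. In these lists 0 genes passed the adjusted threshold in limma. Single genes with an unadjusted p under 0.05 were Lefty2 (difference -0.57) in the pluripotency list, Tfap2c (-0.36) in trophoblast, Cubn (0.24) in extraembryonic endoderm and Lmo2 (0.81) in endothelium and blood.

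No gene in the list of imprint keepers and DNA methylation machinery passed the test. The list also holds the Tet genes, which oxidise methylated cytosine. Of 20 genes in that list 0 passed limma's adjusted threshold and 0 had an unadjusted p under 0.05, with a median difference of -0.034 and 14 negative. Ehmt2, a histone H3 lysine methyltransferase gene, was at 11.20, 11.06 and 11.36 on control arrays, against 11.01, 10.95 and 11.10 on induced arrays, a difference of -0.19 ± 0.096 (SE). Tet2, which oxidises methylated cytosine, had -0.17 ± 0.094, and Eed, a Polycomb subunit gene, -0.11 ± 0.078. The induced samples lay wholly lower for 2 of the 20 genes, against 3.91% of all genes. These were Tet2 and Ctcf, the latter with a difference of only -0.038. Trim28, the corepressor recruited to imprinted control regions, was at 13.91 in the control group, against 13.85 in the induced group, and the de novo methyltransferase gene Dnmt3b at 13.58 and 13.64.

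Other imprinted genes of these and further regions, none of them among the 34, gave no call either. Of 33 listed 25 were measured, with a median difference of 0.0064, 13 positive, 0 past limma's adjusted threshold and 0 at an unadjusted p under 0.05. The smallest p values were those of Mkrn3 (-0.16 ± 0.12), Sfmbt2 (-0.16 ± 0.12) and Nap1l4 (-0.098 ± 0.085, SE). Their median SD within groups was 0.138.

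Start-site windows of 300 bases were found in RefSeq (GRCm38.p6) for 28 of the 34 genes, 42 windows in all, some of them overlapping. Their median CpG count was 12, against 7 over all windows in that table. The hexamer TGCCGC, known as the core recognised by the imprint-keeping factor ZFP57 when methylated, was searched on both strands. It was found in 10 of the 42 windows, or 23.8%, against 11.6% of all windows, and in none of the 5 promoter sequences given above. CpG counts are a feature of the sequence, and methylation was not measured.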

How the data were processed

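RNA of 6 sorted cell samples was labelled with biotin and read on 1 array each. The deposited table holds log2 levels of 45101 probe sets, made by the authors with RMA, which corrects background, quantile-normalizes arrays and summarises probes, per the submitters' processing notes; version and parameters were not given in the sources used here. Background and detection could not be varied. GEO's platform annotation gave 34958 probe sets 1 symbol and 932 several, and 9211 had no entry. After 13 control probe sets, 34945 were used, for 18193 genes, the probe set with the highest mean standing for a gene, with no filter on dim ones.

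Groups and replicate numbers came from the titles. Differences were tested across all genes with limma 3.58.1 (lmFit, eBayes, two-sided) in R 4.3.3 and adjusted by Benjamini-Hochberg; the method was tested on simulated data. An exact permutation test of 3 against 3 cannot go below 0.1. Relations to Kdr used all 720 orders of the arrays, without regard to replicate number, with p-values adjusted over 18192 genes. Replicate numbers are shared by the groups, and deviations from group means correlated at r = 0.16, 0.22 and 0.41 for numbers 1, 2 and 3. All exceed 0.1, so the replicate number was used as a block in an alternative fit, on the data alone. The main fit had no block and was unpaired. Of the unmatched pairs, control 2 with induced 1 (0.30) and control 1 with induced 3 (0.24) also exceeded it, so this pairing is weakly supported.

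The genes, regions and lists were chosen with earlier results of these data known. Values in every sample are given for the 12 smallest p, the highest level in each region of several genes and the 6 largest SD. Of each list, up to 3 with the smallest p and 2 with the highest level are named. Any other gene was named after its values were seen, and sequences were chosen likewise. Alternatives were the replicate block, each sample left out, quantile normalization, median centring, the choice of probe set, a filter on level, array weights, and a trended robust prior.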

Additional observations from a re-analysis of the deposited data

How the results depend on the processing

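The count of 0 imprinted genes past the adjusted threshold held in limma under every alternative tried, and the smallest adjusted p was 0.530, for Dlk1 without control 2. With the replicate block the median SD within groups fell from 0.168 to 0.105, the genes at an unadjusted p under 0.05 were Dlk1 and Slc38a4, and the block changed no call. Groups that did not overlap numbered 1, against 6.79% of all genes. There were 2 after quantile normalization (6.88% of all genes), 3 with arrays centred on their medians (7.13%) and 0 with the most variable probe set (5.77%). With single samples left out there were 2 to 7, against 12.3% to 20.0% of all genes. With control 2 and induced 2 both left out, a setting added after seeing the data, there were 9, against 32.8% of all genes. Array quality weights added 1 call in the related lists, Lmo2. With single samples left out, the maternal median ran from -0.012 to 0.073. The difference then ran from -0.36 to 0.14 for Peg3, -0.73 to 0.37 for Asb4, -0.071 to 0.57 for Ppp1r9a, -0.0057 to 0.21 for Meg3, -0.043 to 0.46 for Mirg and -0.14 to 0.063 for Ndn. Array weights turned Peg3 (0.015), Asb4 (0.011) and Ndn (0.0087). Ndn also turned after quantile normalization (0.0016), with the most variable probe set (0.0088) and without replicate 2 (0.0057). The most variable probe set turned Usp29 (0.022), Sgce (-0.029) and Rasgrf1 (0.091), and gave 0.48 for Meg3. Of 250 values for 17 named genes, 230 kept their sign. The cause was not tested. The count of 12 genes related to Kdr was 12 to 15 over the other probe set choices and scalings, against 10.9% to 12.9% of all genes. Above the median level it was 10 of 20, against 17.4% of all genes. Snrpn dropped out after quantile normalization and Grb10 with the mean of all probe sets. Impact came in under both settings, and Usp29, Ndn and Ascl2 with that mean. Peg10 and Nnat lay below the lower quartile of the arrays, the mean of Zim1 lay just below it and Airn lay near it. Signal over background was not measured here.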

Other observations

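Some genes outside the 34 also followed the Kdr level over the 6 arrays, in the 2 related lists and without passing adjustment over all genes. Of the 25 other imprinted genes measured, 5 had an unadjusted exact permutation p under 0.05 with Kdr, 4 positive and 1 negative. That is 20.0%, against 11.9% of all genes, so most of that list did not follow Kdr. Igf2 and Calcr are among the 5 and were named after their values were seen. Igf2, the paternally expressed growth factor gene beside H19, stood at 10.26, 9.72 and 10.57 on control arrays 1, 2 and 3, against 10.45, 10.06 and 10.51 on induced arrays 1, 2 and 3, with r = 0.907 (exact permutation p = 0.022, adjusted 0.288) and rho = 0.943 (p = 0.017, adjusted 0.269). Without controls 2 and 3, r was 0.650. Calcr, the calcitonin receptor gene next to the Peg10 region, ran the other way, at 8.38, 9.12 and 7.98 on control arrays, against 8.45, 8.49 and 8.13 on induced arrays, with r = -0.977 and rho = -1.0 (exact permutation p = 0.0028 for both, adjusted 0.180). Without controls 2 and 3, r was -0.963.

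Among imprint keepers and DNA methylation machinery, 7 of 20 genes had an unadjusted exact permutation p under 0.05 with Kdr, against 11.9% of all genes. Of these, 3 had a positive and 4 a negative relation, and Tet1, a gene of the oxidising kind, was among the 4. Zfp57, which recruits Trim28 to methylated imprinted control regions, was lowest in control 2, at 8.47, 8.12 and 9.06 on control arrays, against 8.41, 8.32 and 8.58 on induced arrays. Dnmt3l, the cofactor of de novo methylation, was highest there, at 7.60, 8.78 and 7.51 on control arrays, against 7.94, 7.85 and 7.74 on induced arrays.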
